A study of Mus musculus with 3072 samples.

Results

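The cells described here are the single bone marrow cells that the submitters sorted under the name CFU, a population whose transcripts are those of erythroid progenitors. They were found by the count columns whose name holds CFU, in both treatments. Of the 3072 wells that the labels list over 3 sorted populations, 768 are CFU wells, 766 of them have a count column, and 627 passed the limits of at least 20000 counts, 1000 to 10000 detected genes and at most 20% of counts in mitochondrially encoded genes. All mice were wild-type C57BL/6 that had received barcoded stem cells by transplantation. The 4 control mice were sampled at week 32 after transplantation and the 4 platelet_depleted mice at week 28, so treatment and week cannot be told apart. The labels name neither the depleting agent nor the antibodies of the sort, and they do not say whether a sorted cell came from the graft or the host. Each mouse gave 1 plate, so mouse, plate and library cannot be told apart either. The opening code of each title was taken to name the mouse, and nothing in the labels says more about how mice were replicated, so p-values measure the spread between these 8 plates. The control group held 72, 69, 71 and 76 kept cells in its 4 mice, and the depleted group held 91, 85, 78 and 85.

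Colony-forming erythroid progenitors are committed precursors that divide under erythropoietin and then accumulate hemoglobin. As they mature, the stem cell factor receptor Kit and the transcription factor Myb decline, while the globins, the heme pathway and the proteins of the red cell membrane rise. Klf1 is the transcription factor that drives the adult globin and heme genes, Epor is the erythropoietin receptor, Tfrc takes up iron-loaded transferrin, and the carbonic anhydrases Car1 and Car2 interconvert carbon dioxide and bicarbonate. The question addressed was which genes differ most between the CFU cells of 1 mouse, and which of them go up and down together from cell to cell.

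Globin, S phase and G2/M genes each moved together from cell to cell, and the DNA before the start site of 2 globin genes, 2 S phase genes, the G2/M gene Ube2c and Kpna2, which moved with the G2/M genes, is shown so that the sequence can be read beside the values that follow. The sequences are RefSeq's, build GRCm38.p6, and each is the 250 bases that end just before the annotated start, written 5′ to 3′ along the strand of the gene. Capitals mark the letters searched on either strand. In the globin genes they were AGATAA (a form of the GATA motif), CCACCC (a form of the CACCC box) and CCAAT. In the S phase genes they were GGCGGGA (E2F-like) and CCAAT. In Ube2c and Kpna2 they were CCAAT and TTTGAA (the CHR element of mitotic genes, whose complement reads TTCAAA). Only these exact letters were searched, so related runs, such as ccacaccc in Hbb-bs and tgataa in Hba-a1, stand unmarked and uncounted. A match is a run of letters and was not tested for binding. Hba-a1 (chr11:32283422-32283671, plus strand) and Hbb-bs (chr7:103827929-103828178, minus strand) encode α and β globin.
Hba-a1: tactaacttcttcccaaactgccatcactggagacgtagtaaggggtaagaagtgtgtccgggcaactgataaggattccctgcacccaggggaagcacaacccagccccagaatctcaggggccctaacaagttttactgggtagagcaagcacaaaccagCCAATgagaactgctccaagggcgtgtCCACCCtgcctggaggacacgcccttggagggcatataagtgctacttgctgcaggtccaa
Hbb-bs: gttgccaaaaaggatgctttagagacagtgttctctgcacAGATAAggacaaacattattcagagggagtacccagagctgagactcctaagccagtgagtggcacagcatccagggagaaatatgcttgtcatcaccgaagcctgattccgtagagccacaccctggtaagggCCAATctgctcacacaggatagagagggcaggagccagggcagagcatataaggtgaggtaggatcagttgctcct
Rrm2 (chr12:24708004-24708253, plus strand) encodes the ribonucleotide reductase subunit that makes deoxynucleotides, and Mcm5 (chr8:75109259-75109508, plus strand) is part of the replicative helicase.
Rrm2: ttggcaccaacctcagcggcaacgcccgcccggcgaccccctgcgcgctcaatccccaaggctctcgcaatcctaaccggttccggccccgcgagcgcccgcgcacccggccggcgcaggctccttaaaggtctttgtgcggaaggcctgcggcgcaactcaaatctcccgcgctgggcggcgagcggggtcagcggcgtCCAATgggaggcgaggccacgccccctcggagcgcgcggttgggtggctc
Mcm5: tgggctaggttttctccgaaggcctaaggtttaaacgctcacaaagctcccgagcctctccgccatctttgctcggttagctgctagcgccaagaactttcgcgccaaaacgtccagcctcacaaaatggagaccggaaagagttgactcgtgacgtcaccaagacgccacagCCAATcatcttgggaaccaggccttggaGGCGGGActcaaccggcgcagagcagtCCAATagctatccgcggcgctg
Ube2c (chr2:164769679-164769928, plus strand) is the ubiquitin-conjugating enzyme of the anaphase-promoting complex, and Kpna2 (chr11:106999526-106999775, minus strand) is a nuclear import factor.
Ube2c: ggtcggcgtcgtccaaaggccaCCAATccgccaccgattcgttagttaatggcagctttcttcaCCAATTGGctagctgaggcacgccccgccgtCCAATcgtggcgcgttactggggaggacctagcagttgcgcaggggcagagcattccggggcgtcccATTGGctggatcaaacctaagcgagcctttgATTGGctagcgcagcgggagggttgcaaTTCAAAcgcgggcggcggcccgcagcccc
Kpna2: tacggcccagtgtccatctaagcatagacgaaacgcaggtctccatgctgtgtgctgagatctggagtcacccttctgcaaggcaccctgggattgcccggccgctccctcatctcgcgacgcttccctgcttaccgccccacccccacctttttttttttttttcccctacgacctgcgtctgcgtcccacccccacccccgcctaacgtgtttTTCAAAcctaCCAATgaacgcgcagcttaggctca

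Ube2c held CCAAT or its complement 6 times, with 1 match overlapping another in the run CCAATTGG, and 1 TTCAAA. Kpna2 held 1 TTCAAA and 1 CCAAT. Over the G2/M list, 22 of the 25 genes with a sequence in the table (88%) held CCAAT, against 37.9% of the 8210 tested genes with a sequence and 34.5% of all 27025. TTTGAA stood in 9 of the 25 (36%), against 10.96% of the tested genes. GGCGGGA stood in 9 of 24 S phase genes (37.5%), Mcm5 among them, against 19.1% of the tested genes, and the Rrm2 window held none. All 4 tested globin genes held CCAAT, 3 held CCACCC (31.5% of the tested genes), and 1, Hbb-bs, held AGATAA (5.94% of the tested genes). Of the 30 most variable genes named further on, 17 had a sequence.

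The kept cells held 30783 to 5181094 counts, with mouse medians from 1.88165e+06 (control 1) to 2.7141e+06 (depleted 4), and median detected genes ran from 7569 to 8454 per mouse. The library type carries no molecular identifiers, so counts are reads after amplification and intervals on them would cover counting error only. Of the wells left out, 119 had too few counts and 20 had over 10000 genes, and none failed on mitochondrial counts alone. The last well kept had 30783 counts and the first one below the limit 18592, and the gene limit fell between wells of 9924 and 10697 genes. The share of wells kept was 75% in control and 88.7% in depleted mice. Mitochondrially encoded genes held a median of 2.84% to 3.82% of counts per mouse, and 7 cells were under 1% (2 in control 3, 4 in depleted 3 and 1 in depleted 4). The feature CT010467.1, which the reference used here does not list, held between 0.573% and 34.2% of a cell's counts, with a median of 8.72%. No pair of kept wells had equal counts and genes.

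The erythroid name held for nearly all cells. At 10 CPM or more (a gene's counts scaled to the same total in every cell), 615 of 627 cells expressed at least 3 of Klf1, Car1, Car2, Epor and Tfrc, and 596 expressed all 5. In those 615 cells the median level was 711 CPM for Klf1, 4176 CPM for Car1, 6577 CPM for Car2, 221 CPM for Epor and 323 CPM for Tfrc. The plate of control 2, which the authors' cell table calls by another population name, held 69 such cells of 69. The other 12 cells sat in control 1 (3 cells), control 3 (5), depleted 2 (3) and depleted 4 (1), and the remaining 4 mice held none. Their median Klf1 was 1.27 CPM, their median Epor 0 CPM, and their median Mpo, the myeloperoxidase of granulocyte precursors, 9059 CPM against 0 CPM in the erythroid cells. Of these 12 cells, 8 expressed at least 6 of 12 myeloid markers, 3 expressed at least 5 of 9 B cell markers, 2 did so for 9 neutrophil markers, 2 held the T and lymphoid list, 1 held none, and a cell could hold more than 1 list. Of all 627 cells, 2 expressed at least 7 of 14 megakaryocyte markers, and none held the mast cell or the stem cell list. One erythroid-marker cell also held the myeloid list and another the neutrophil list. Without the 12 cells the mean between-cell SD of Klf1 was 0.62 in place of 0.92 log2 units, so values are also given for the 615 erythroid cells alone.

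To compare genes of unlike level, 0.1 was added to the variance between the cells of a mouse of log2(CPM + 10). That sum was divided by the sum usual for genes of that level in the same mouse. The log2 of that ratio, averaged over 8 mice, is called the variance ratio. A ratio of 1 stands for a sum that is 2-fold the usual one. Where the usual variance is small, the variance itself differs by a larger fold than the ratio gives. For Hspa8, with a ratio of 1.81, the between-cell SD was 0.611 against a typical 0.188. Over 12171 genes with a count in at least 10% of cells the median ratio was 0.03, and 90 genes (0.739%) were above 1. Of genes with a count in at least 20% of cells, 189 ranked among the 500 highest in 6 or more of the 8 mice, and 73 did so in all 8. The 30 with the highest ratios are the genes described next, and 25 of them ranked among the 500 highest in every mouse. These ranks are a description of the cells and carry no test.

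**Figure D1:**
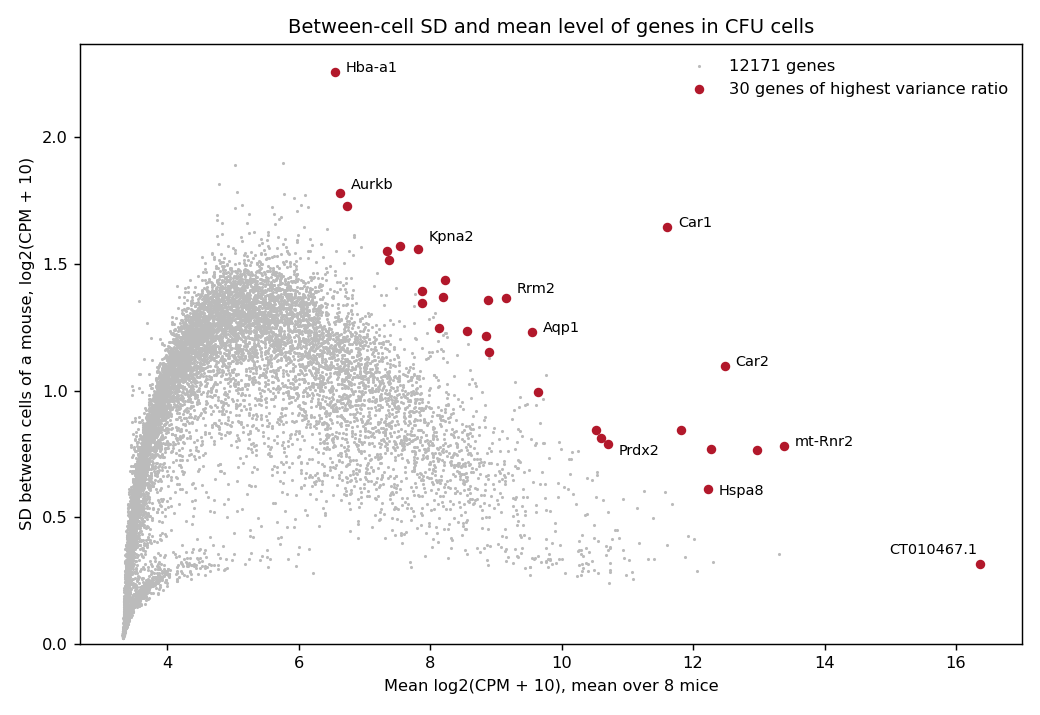
Between-cell SD of log2(CPM + 10) within a mouse (y axis, log2 units, the square root of the variance averaged over 8 mice) against the mean level (x axis, log2(CPM + 10), averaged over the mice), for 12171 genes (grey) and the 30 genes with the highest variance ratio (red). Hba-a1 has the highest SD of all genes plotted (2.26), and Car1 and Car2 lie far above other genes of their level, while few genes share the level of CT010467.1.

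The gene that varied most for its level was an erythroid marker itself. Car1 had a variance ratio of 3.95 ± 0.61 (SD, n = 8 mice), and of 3.70 ± 0.70 in erythroid cells alone, the highest of all genes either way. Its median level was 3972, 3620.5, 3419 and 3917.5 CPM in the 4 control mice and 4090, 5113, 3983 and 4799 CPM in the depleted mice, so the medians of the groups did not overlap, though only narrowly. From counts summed per mouse the groups overlapped, at 3810 to 4263 CPM in control and 3950 to 5525 CPM in depleted mice. Over all kept cells the 10th and 90th percentiles were 1390 and 7363 CPM, and a few cells lay far lower. In 19 of the 615 erythroid cells (3.09%, found in 7 mice) Car1 was more than 10-fold below the median of the mouse, with a median of 8076 detected genes in them against 8102 in the other erythroid cells. Those cells held a median of 80.7 CPM of Hba-a1 against 75.9 CPM in the rest. Car2 had the next highest ratio, 2.78 ± 1.0, and it fell to 2.16 ± 0.78 in erythroid cells, with only 3 cells more than 10-fold below the mouse median.

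The remaining 3 markers varied less. Klf1 ranked 81 in all cells and 821 in erythroid cells, with a ratio of 1.005 ± 0.92 that fell to 0.44 ± 0.76. Its between-cell SD in erythroid cells was 0.38, 0.41, 1.08 and 0.43 in control mice and 0.46, 0.81, 0.99 and 0.35 in depleted mice, so it was near even across the cells of 5 mice and wide in control 3, depleted 2 and depleted 3. In 5 erythroid cells Klf1 was more than 10-fold below the mouse median, and those cells had a median of 5610 detected genes against 8105 in the rest. Epor ranked 436 and then 1052, and Tfrc ranked 74 and then 90. Tfrc had a ratio of 1.06 ± 0.42 over the 8 mice.

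Globin was the program with the widest range. Hba-a1 had a variance ratio of 2.07 ± 0.47 and a between-cell SD of 2.32, 1.96, 2.16 and 2.22 log2 units in control mice and 2.27, 2.57, 2.33 and 2.18 in depleted mice. Its median level was 133, 64.2, 41.6 and 203 CPM in control mice and 56.5, 44.2, 50.8 and 79.9 CPM in depleted mice. The 10th percentile of cells was at or below 10.1 CPM in every mouse, while the 90th percentile lay between 500.45 and 1196 CPM. No mouse was narrow, and the range within each mouse was far wider than the range of medians between mice. The β globins were lower and often absent: Hbb-bs had mouse medians of 1.99 to 31.2 CPM with a ratio of 1.06 ± 0.23, and Hbb-bt had medians of 1.32 to 19.8 CPM with a ratio of 0.88 ± 0.21. Hba-a2 had a ratio of 0.27 ± 0.29. The α genes Hba-a1 and Hba-a2, and the β genes Hbb-bs and Hbb-bt, are close copies, and the counting can move reads between copies, so the split within each pair is uncertain.

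Genes of the red cell membrane were among the 30. Rhd and Rhag, members of the Rh complex of the red cell surface, had ratios of 1.74 ± 0.64 and 1.43 ± 0.37. Hemgn, a nuclear protein of maturing erythroblasts, stood at 1.46 ± 0.35, the water channel Aqp1 at 1.76 ± 0.78, and the claudin Cldn13 at 1.67 ± 0.33. The peroxidase Prdx2 (1.41 ± 0.61) and the protease Ctse (1.42 ± 0.61) also varied widely. Over the lists, 15 of 17 tested membrane and maturation genes had a ratio above 0 (median 0.73), as had 10 of 10 heme genes (median 0.70, with Ppox, Uros and Fech among the highest) and 8 of 9 iron genes (median 0.69, led by Tfrc, Steap3, Fth1 and Hmox1), against 6611 of 12171 genes in all.

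Cell cycle genes varied widely as well. All 30 G2/M genes had a ratio above 0, with a median of 0.77, and 24 of 29 S phase genes did, with a median of 0.67. Rrm2 had a ratio of 2.06 ± 0.54 and median levels of 746, 740, 592 and 934 CPM in control mice and 655, 634, 777 and 633 CPM in depleted mice. Rrm2 was more than 10-fold below the mouse median in 19 erythroid cells (3.09%). Of the G2/M genes, Top2a, the topoisomerase that untangles replicated DNA, had a ratio of 1.62 ± 0.30, the mitotic kinase Aurkb 1.40 ± 0.13, and Ube2c 1.37 ± 0.29. Kpna2, which is on none of the lists, reached 1.73 ± 0.42. Top2a was more than 10-fold below the mouse median in 41 erythroid cells (6.67%), seen in all 8 mice, and Ccnb1, the cyclin of mitosis, in 17 (2.76%, 6 mice). Uhrf1, Rrm1 and Ccne1 followed Rrm2 in the S phase list, with ratios of 1.33 ± 0.33, 1.31 ± 0.54 and 1.22 ± 0.44.

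The progenitor gene Kit and the cyclins Ccnd3 and Ccnd2 varied widely too. Kit had a ratio of 1.26 ± 0.31, with 72 of the 615 erythroid cells (11.7%, from 8.33% to 17.4% by mouse) more than 10-fold below the mouse median. The Kit-low cells held a median of 720 CPM of Hba-a1 against 59.3 CPM in the rest. The D-type cyclins, which move cells through G1, included 1 of the 30: Ccnd3, at 1.33 ± 0.46 and mouse medians of 215 to 347 CPM. Ccnd2, which was looked up beside it for its role and after its values were seen, had a ratio of 1.04 ± 0.18 and mouse medians of 12.1 to 134 CPM, and it was more than 10-fold below the median in 156 erythroid cells (25.4%). Ccnd2-low cells held a median of 420 CPM of Hba-a1 against 44.8 CPM in the rest. The early progenitor list as a whole had a median ratio of 0.43, with Kit, Myb and Cd34 among the highest and Cd34 at a median of 0 CPM in every mouse. The interferon-γ receptor subunit Ifngr1 reached 1.37 ± 0.26.

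The other named genes fell into smaller sets. The chaperone Hspa8 had a ratio of 1.81 ± 0.46 at mouse medians of 4085 to 5849 CPM, and 7 of 9 heat shock genes had a ratio above 0 (median 0.66). Asns, which makes asparagine, stood at 1.42 ± 0.39, Phgdh, the entry enzyme of serine synthesis, at 1.33 ± 0.32, the sphingosine kinase Sphk1 at 1.46 ± 0.49, and the tubulin Tubb4b at 1.37 ± 0.75. Gfi1b, a repressor needed for erythroid and megakaryocyte development, stood at 1.48 ± 0.28, whereas the erythroid transcription factors as a list had a median of 0.05, with 8 of 14 above 0. The mitochondrial transcripts mt-Rnr2, mt-Co1, mt-Cytb and mt-Nd1 had ratios of 2.36 ± 1.08, 2.06 ± 1.28, 1.76 ± 1.22 and 1.73 ± 1.23, while the mitochondrial list as a whole stood at -0.12. Without the 7 cells under 1% mitochondrial counts, a choice made after seeing the data, the ratios were 1.64, 1.16, 0.93 and 1.05. CT010467.1 had a ratio of 2.64 ± 0.55, but only 10 genes had a mean above 12 on the log2 scale, so the usual variance at its level rests on few genes.

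Some lists had a median ratio below 0. Cytosolic ribosomal protein genes had a median ratio of -0.74, with 5 of 84 above 0, and replication-dependent histones had -0.27, with 10 of 49 above 0. Interferon response genes, by contrast, stood at 0.30 with 12 of 17 above 0. They were led by Oasl2, Ifi203, Rsad2 and Gbp2, each with a median of 0 CPM in every mouse. Immediate early genes stood at 0.35 with 8 of 11 above 0, led by Fos, Egr1, Jun and Btg2. Fos had mouse medians of 1.96, 41.0, 19.4 and 22.4 CPM in control and 1.36, 48.2, 23.5 and 0.445 CPM in depleted mice, so it ranged widely within each group and the groups overlapped. Markers of other lineages gave a median of 1.13 for 4 tested myeloid genes, led by Mpo and Ctsg, and 0.54 once the 12 cells were left out.

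Restricting the ranking to the 615 erythroid cells kept 24 of the 30 genes among the 30 highest and 29 among the 100 highest. The genes that then entered the 30 highest were Cd24a, H2-K1, Hspa5, Npm1, Tagln2 and Uhrf1. The lowest ratio among the 30 in erythroid cells was 0.83, that of Tubb4b. The ranking rested more on the measure: by the squared coefficient of variation of CPM, 7 of the 30 were among the 30 highest and 18 among the 100 highest, and Hba-a1 then came first. Differences between mice made up a median of 5.63% of the total variance of the 30 genes, from 1.77% to 70.2%.

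**Figure D2:**
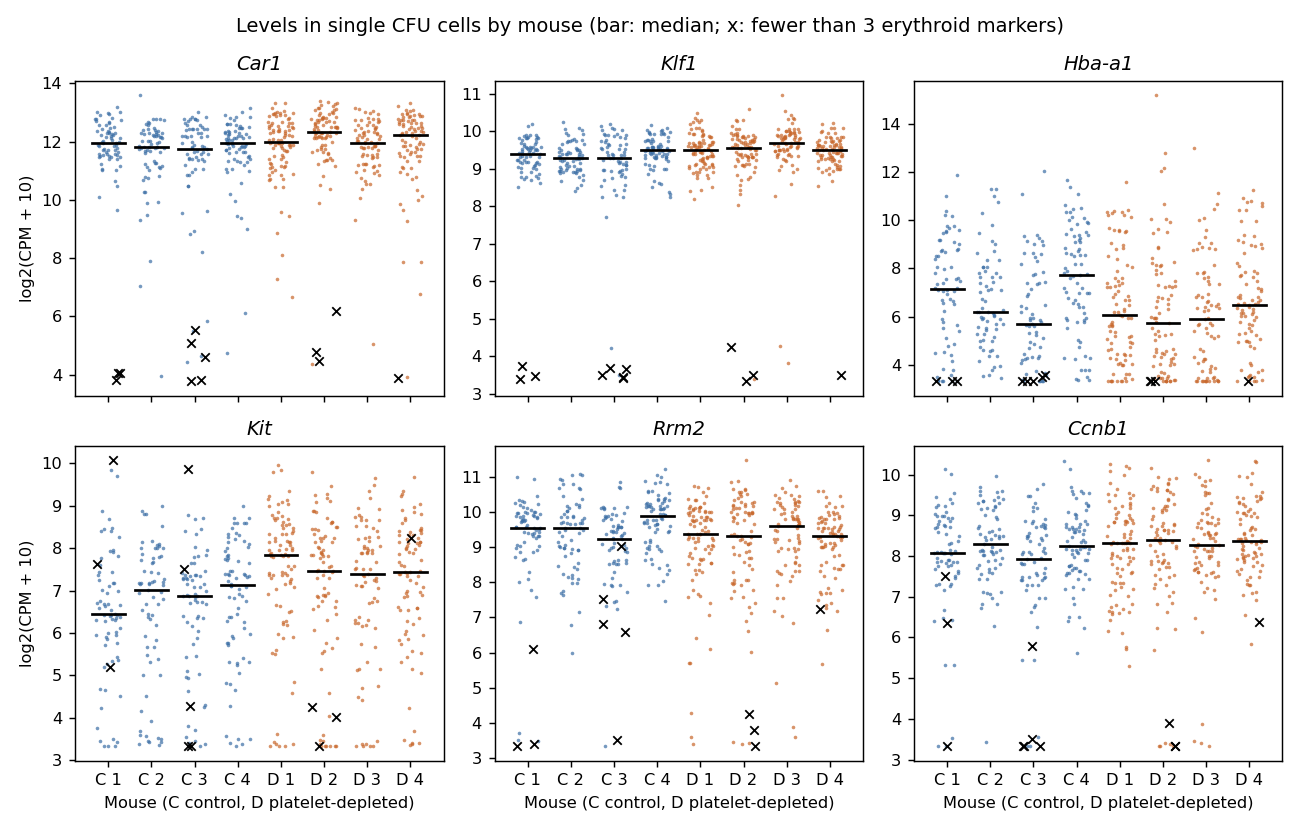
Level of Car1, Klf1, Hba-a1, Kit, Rrm2 and Ccnb1 in every kept CFU cell, as log2(CPM + 10), by mouse (C control in blue, D depleted in orange). The bar is the median and a cross marks each of the 12 cells with fewer than 3 erythroid markers. Klf1 lies in a narrow band in most cells, Car1 has a lower tail, and Hba-a1 spreads over the whole axis in each mouse.

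To find which genes moved together, Pearson's r between genes was computed over the cells of each mouse and averaged over the 8 mice, so that differences between mice do not enter. Each r rests on 69 to 91 cells that share a plate, and cells differ in depth and in the share taken by the highest genes, so r is given as a description. Over 10549 genes the median r of all pairs was 0.0154, and the 1st and 99th percentiles of pairs were -0.119 and 0.190. The mean r was 0.5 or more in 3225 pairs and -0.5 or less in 321.

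Of the 14 program lists the globin genes had the highest r. The median r within it was 0.833 ± 0.028 (SD over 8 mice), with the mice between 0.791 and 0.883, and 0.831 in erythroid cells. Hba-a1 and Hba-a2 gave 0.924, Hbb-bs and Hbb-bt 0.843, and Hba-a1 and Hbb-bs, which lie on different chromosomes, 0.800 ± 0.027. Reads thinned to 100000 per cell gave 0.763 for the list, and holding detected genes and depth constant gave 0.826. Mitochondrially encoded genes followed at 0.544 ± 0.140, ribosomal proteins at 0.424 ± 0.156, S phase genes at 0.370 ± 0.081, membrane and maturation genes at 0.360 ± 0.087, G2/M genes at 0.330 ± 0.082 and heme synthesis genes at 0.311 ± 0.048. The remaining lists had medians of 0.0491 to 0.169, with heat shock the highest and histones the lowest of them.

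Cells with more Hba-a1 had less Kit, Ccnd2, Myb and Gata2, in every mouse. Kit against Hba-a1 gave -0.591, -0.628, -0.452 and -0.694 in control mice and -0.728, -0.669, -0.504 and -0.640 in depleted mice, a mean of -0.613. Ccnd2 gave -0.639 ± 0.081 and Myb -0.594 ± 0.105, each below 0 in 8 of 8 mice. Ccnd3 went the other way, at 0.663 ± 0.116 and above 0 in 8 of 8 mice, and the pair of cyclins gave -0.510 ± 0.099 with each other. Gata2, the GATA factor of early progenitors, gave -0.406 ± 0.099 against Hba-a1. The lowest r of all pairs was that of Cmtm7, a membrane protein, with Hba-a1, at -0.758 ± 0.040, followed for Hba-a1 by Psmb8, a subunit of the immunoproteasome, at -0.672, and Arhgdib, an inhibitor of small GTPases, at -0.661. On the positive side, the nearest gene outside the globins was Mgst3, a microsomal glutathione transferase, at 0.766.

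Whole lists gave the same picture. The mean level of the globin genes in a cell had r of 0.773 ± 0.092 with the membrane and maturation list, 0.752 ± 0.106 with heme synthesis, 0.5 ± 0.106 with G2/M, 0.451 ± 0.121 with S phase and -0.611 ± 0.127 with the early progenitor list. Heme synthesis and membrane genes gave 0.883 with each other. The globin level had r of -0.166 ± 0.150 with the number of detected genes and -0.0177 ± 0.147 with depth. The first principal component of the 189 genes held 24.04% of their variance, and 21.1% in erythroid cells alone, where Cldn13 and Hba-a1 were among the highest weights and Cmtm7, Arhgdib, Psmb8, Ccnd2, Myb and Kit were the lowest. The second component held 10.8% and the third 4.18% in all cells.

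Car1 went against Hba-a1 in erythroid cells, where Car2 and Klf1 went with it. In erythroid cells its r with Hba-a1 was -0.223, with the mice between -0.491 and -0.110. Over all cells it was -0.0909 ± 0.237, positive in control 1, control 3 and depleted 2, the 3 mice with the most non-erythroid cells. Car2 gave 0.426 ± 0.095 and Klf1 0.425 ± 0.171 against Hba-a1. Klf1 and Car1 gave 0.356 ± 0.464 over all cells but 0.0885 in erythroid cells, so the value moved with the 12 cells. Klf1 and Car2 gave 0.627 and 0.471. In the erythroid cells Klf1 gave 0.529 with Blvrb, which encodes biliverdin reductase B, and 0.486 with Alad, the second heme enzyme, the pair with the highest r to Klf1 over all cells. Car1 was nearest to Prdx6 (0.345) and Atp5g1 (0.303) among its 5.

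**Figure D3:**
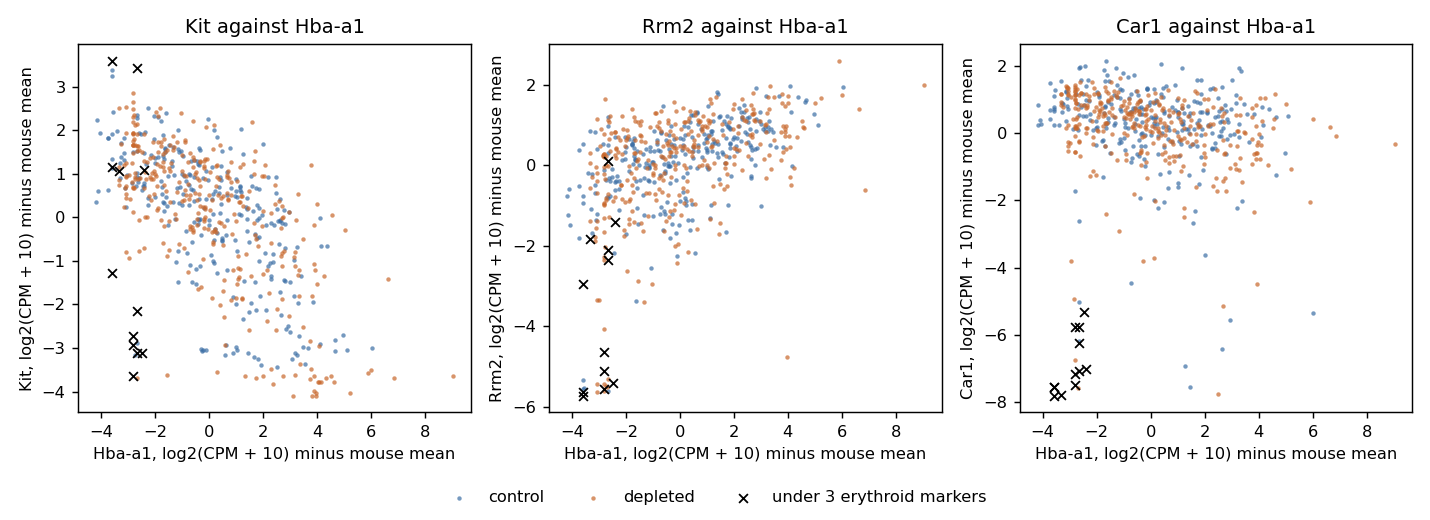
Kit, Rrm2 and Car1 (y axes) against Hba-a1 (x axes) in single CFU cells, each as log2(CPM + 10) minus the mean of the mouse, with control in blue, depleted in orange and crosses for the 12 cells with fewer than 3 erythroid markers. Kit falls and Rrm2 rises with Hba-a1 (mean r of -0.613 and 0.492), while the crosses stand at low Hba-a1 and low Car1.

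Clustering the 189 genes by 1 minus r placed 137 of them in 7 groups of at least 5 genes. The largest held 63 genes, with Cldn13, Rhd, Tmem14c and Hba-a1 among its leading genes and a median r of 0.421 ± 0.075. It held 3 globins, 9 membrane genes and 3 heme genes, and also 11 S phase genes, among them Rrm2 (r to the others 0.454), Rrm1, Pcna and Mcm5, so replication genes fell in with the maturation genes. Car2 and Tfrc were in it, while Klf1 and Epor were not among the 189 genes. The 14 genes of the fourth group, led by Cmtm7, Psmb8, Kit, Ccnd2 and Syngr2 and also holding Myb, Ifngr1, Phgdh and the class I histocompatibility genes H2-K1, H2-Q6 and H2-Q7, had a median r of 0.408 ± 0.058 within the group. Against the largest group their median r was -0.330 ± 0.062, between -0.389 and -0.219 by mouse, and -0.339 in erythroid cells.

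A group of 18 genes held 13 of the G2/M list and was led by Ube2c, Kpna2, Aurka, Plk1 and Aurkb, with a median r of 0.434 ± 0.056. It stood apart from the group that held the S phase genes, and its median r with the largest group was 0.256 ± 0.083. Rrm2 against Mcm5 gave 0.560 ± 0.122 and Ube2c against the mitotic kinase Plk1 0.625 ± 0.103, whereas Rrm2 against Ccnb1 gave 0.254 ± 0.291, with 2 of 8 mice below 0. The S phase list against the G2/M list gave 0.243 ± 0.3, with mice from -0.176 to 0.603, and 0.156 ± 0.258 in erythroid cells. Of the 18 genes, 14 had a sequence before the start site, and 13 of those held CCAAT (92.9%) and 8 TTTGAA (57.1%). The proliferation marker Mki67 was nearest to Cldn13 (0.515) and Hba-a1 (0.462) and not to another G2/M gene, of which Birc5 (0.448) was the nearest.

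A group of 19 genes held Car1. It was led by Npm1 and Ncl, nucleolar proteins of ribosome assembly, Hspd1, a mitochondrial chaperone, Srm, which makes spermidine, and Ldha, a lactate dehydrogenase subunit, with a median r of 0.412 ± 0.119 and 0.329 in erythroid cells. Npm1 and Ncl gave 0.751 ± 0.086, and Npm1 against Hba-a1 gave -0.479 ± 0.248, below 0 in 7 of 8 mice. Car1 itself was a loose member, with r to the others of 0.317 ± 0.188 and 0.186 in erythroid cells. The oncogene Myc, looked up after the group was seen, gave -0.354 ± 0.124 against Hba-a1 and 0.351 ± 0.196 against Npm1.

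The last 3 groups were small, and in 2 of them the median r was lower in erythroid cells alone. The part of the non-erythroid cells in this was not tested. Tuba1b, Tubb4b, Asns and Tubb5 led 10 genes whose median r of 0.362 ± 0.192 became 0.228 in erythroid cells. Plac8, Lcp1, Igfbp4, Lyz2 and Plcg2, genes of myeloid and lymphoid cells, led 8 genes whose median r of 0.336 ± 0.287 became 0.204. The 4 mitochondrial transcripts and Xist made up the last group, at 0.668 ± 0.194. The megakaryocyte gene Pf4 had weak partners, among them Tmsb4x, an actin-binding peptide, at 0.201 ± 0.143.

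**Figure D4:**
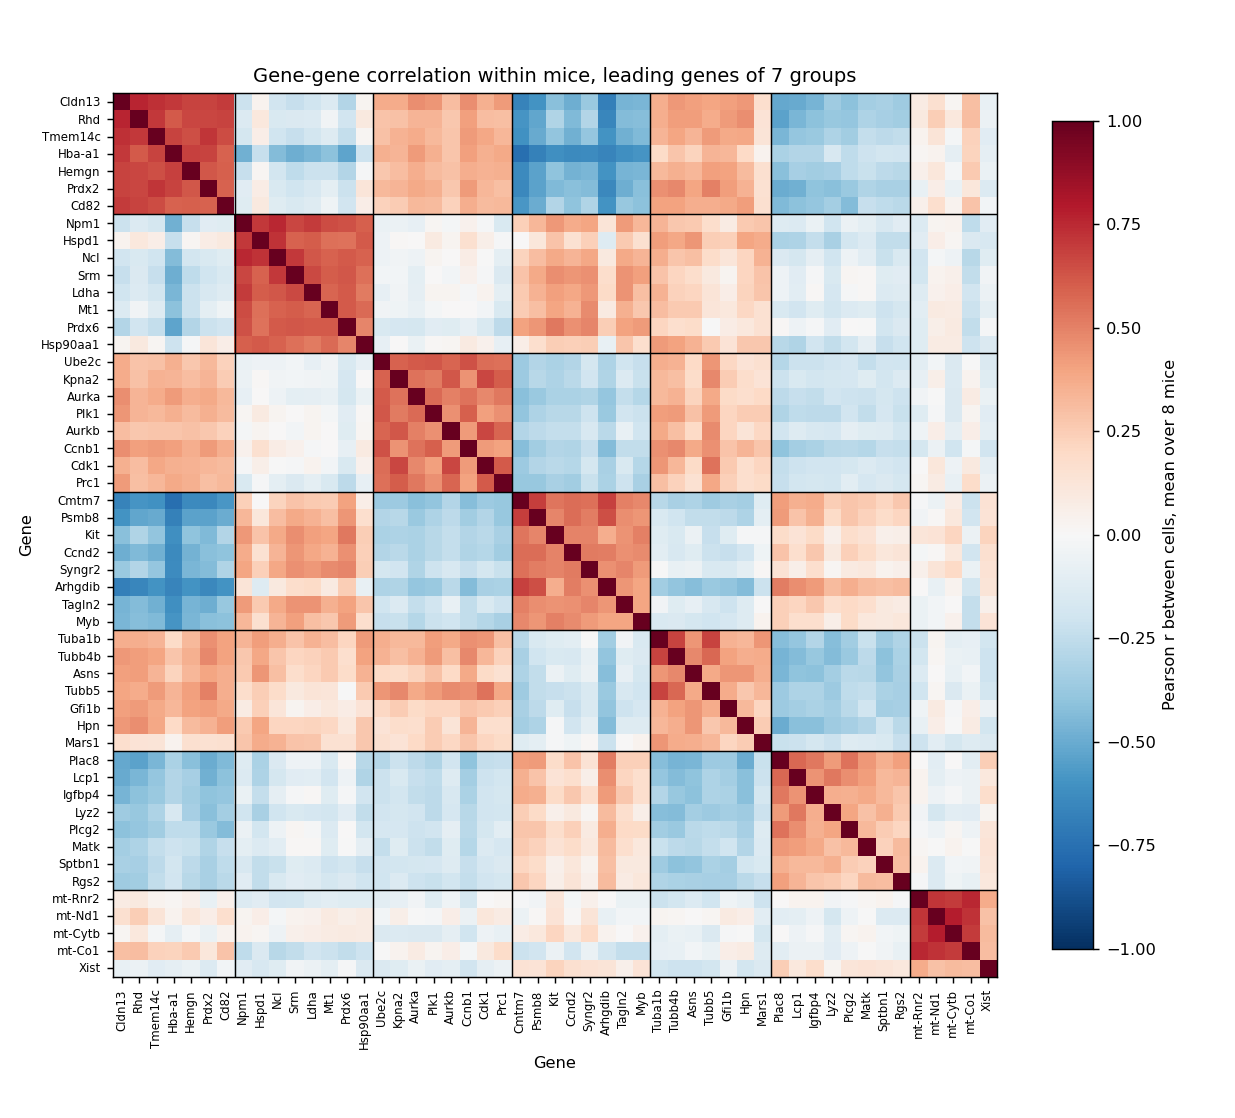
Pearson r between cells, averaged over 8 mice (colour scale from -1 to 1), for some of the leading genes of each of the 7 groups, with black lines between groups. The block of Cldn13 to Cd82 is red within itself and blue against the block of Cmtm7 to Myb, and the G2/M block of Ube2c to Prc1 is red within itself and paler against the first block.

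Platelet-depleted and control mice were then compared with the mouse as the replicate. No gene changed in level by edgeR's quasi-likelihood test on counts summed per mouse: 0 of 15545 genes (0%) had an adjusted p under 0.05, the lowest being 0.161, while 1790 had an unadjusted p under 0.05. DESeq2 on the same sums called 465 of 13083 genes (3.55%), 189 higher and 276 lower in depleted mice, so the count depends on the tool. None of the 30 most variable genes was called by edgeR, and DESeq2 called Kpna2 and Aurkb. For 3 of the 30, namely Aqp1, Car2 and mt-Nd1, the 4 depleted mice were above the 4 control mice, to be read against the 8.5% of all genes whose groups did not overlap. Unadjusted p was under 0.05 for 7 of the 30 against 11.5% of all genes. The share of wells kept and the 12 non-erythroid cells (8 in control and 4 in depleted mice) also differed between the groups. In erythroid cells alone edgeR again called 0 of 15353 genes, with a lowest adjusted p of 0.131.

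Levels of Kit, Myb, the α globin genes, Ccne1 and Car2 were as follows. The β globins Hbb-bs and Hbb-bt overlapped between the groups, with adjusted p of 0.966 and 0.665 by edgeR. Kit, from the counts summed per mouse, stood at 150, 139, 134 and 153 CPM in control and 228, 219, 180 and 213 CPM in depleted mice. The means were 144 ± 9.13 and 210 ± 20.9 CPM (SD, n = 4 each), a log2 difference of 0.55 ± 0.09 (SE) with an adjusted p of 0.162 by edgeR and 1.34e-05 by DESeq2, and the 2 groups did not overlap. Myb was 122 ± 23.7 and 172 ± 20.7 CPM, with an adjusted p of 0.304 by edgeR and 0.0303 by DESeq2. Hba-a2 was 44.2 ± 16.4 CPM in control and 22.1 ± 6.37 CPM in depleted mice, with an adjusted p of 0.299 by edgeR and 0.0125 by DESeq2, while its close copy Hba-a1 was 323 ± 88.2 and 297 ± 108 CPM, with 0.911 and 0.929. None of these passed edgeR's test, and the groups overlapped for Myb and Hba-a1 but not for Hba-a2. Ccne1, the cyclin that starts S phase, was 416 ± 9.14 and 335 ± 10.9 CPM, with 0.184 by edgeR and 7.01e-06 by DESeq2. Car2 was 6100 ± 599 and 7057 ± 124 CPM, with 0.309 and 0.103. Thus Kit and Myb were on average higher and Hba-a2 and Ccne1 lower in the depleted mice, and the tools disagreed on the call.

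The spread between cells did not differ detectably either. By limma on the variance ratio of each mouse, in cells thinned to 100000 counts, 0 of 12171 genes (0%) had an adjusted p under 0.05, the lowest being 0.526, and 832 had an unadjusted p under 0.05. Of the 30 genes, none had an unadjusted p under 0.05 and none had groups that did not overlap, against 3.39% of all genes. Their differences ran from -0.61 to 0.65, depleted minus control. Car1 had a thinned ratio of 4.27 in control and 3.68 in depleted mice, with a difference of -0.59 ± 0.46 (SE) and an adjusted p of 0.883.

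Over 14 lists, the between-cell SD of the list mean was compared by permuting the group labels of the mice exactly, on both sides. The lowest p that the 70 labelings allow is 0.0286, no list had a p under 0.05, and the lowest adjusted p was 0.971. The G2/M list had an SD of 0.770 ± 0.132 in control and 0.927 ± 0.171 in depleted mice, with an exact permutation p of 0.229. The globin list had 1.66 ± 0.127 and 1.69 ± 0.159, with an exact permutation p of 0.771. The median r within lists gave the same: the lowest adjusted p of that exact test was 0.933, and the globin list had 0.749 ± 0.042 in control and 0.777 ± 0.036 in depleted mice.

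**Figure D5:**
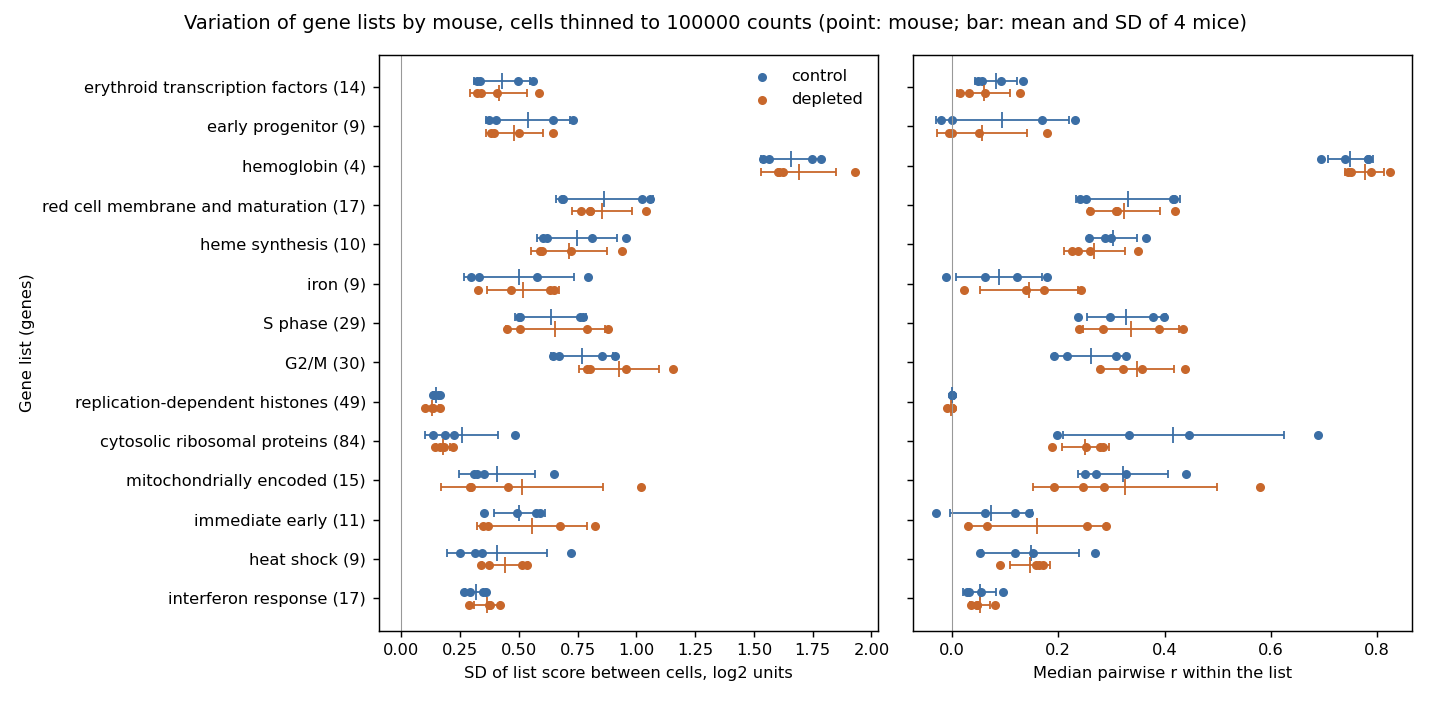
Between-cell SD of the list mean (left, log2 units) and median pairwise r within the list (right) for 14 gene lists, in cells thinned to 100000 counts. Each point is a mouse, control in blue and depleted in orange, and the bars give the mean and SD of 4 mice. Hemoglobin stands far to the right in both panels, and the 2 groups of mice overlap for every list shown.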

How the data were processed

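The values are raw counts per gene and well, as deposited. The authors trimmed, aligned and counted the Smart-seq2 reads with Trim Galore 0.5, STAR 2.6.0 and HTSeq 0.6.1, per the submitters' processing notes. Both genome build and annotation remain not given in the sources used here, and gene names are those of the table. Of its 55401 rows, 217 that share 107 symbols were summed by symbol. The 766 CFU columns were used and 2304 other value columns were not. No doublet caller was run, since cells were sorted singly, and wells of over 10000 genes were left out.

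Levels were log2(CPM + 10). Within each mouse, log2 of the between-cell variance plus 0.1 was taken relative to a lowess trend on the mean (span of 0.2). Tests of depleted against control mice used edgeR 4.0.16 (quasi-likelihood, TMM) on counts summed per mouse, limma 3.58.1 on variance ratios and exact permutation tests on lists, the last 2 in cells thinned to 100000 counts (1 cell of control 1 was below that and left out), with Benjamini-Hochberg adjustment. DESeq2 1.42.0 was an alternative. R 4.3.3, Python 3.11.15, numpy 2.4.6, pandas 2.3.3, scipy 1.17.1 and statsmodels 0.14.6 were used. Tested on simulated data, the edgeR step recovered 181 of 200 genes changed by 1.5 log2 units among 15156 genes, with 8 false calls. For edgeR, every gene was simulated with the same dispersion, and the changed genes were drawn from those of higher counts. Smaller changes were not simulated, while the log2 differences of the 30 genes ran from -0.70 to 0.40. The share recovered at such sizes is therefore not known. The limma step recovered 150 of 200 changed by 2 log2 units among 12171, with 8 false calls. For limma, each gene was simulated with the same variance in every mouse of a group. In the data the ratio differed between mice, with an SD of 1.0 for Car2, so that share recovered need not hold here.

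Named were the 5 markers, the 30 highest variance ratios among genes with a count in 20% of cells that ranked in the 500 highest in at least 6 of 8 mice, up to 4 members of each list, the nearest genes of fixed anchors, and up to 5 leading genes of each correlation group. Groups came from average-linkage clustering at a distance of 0.7. The rule allowed 200 genes for this and 189 met it. Hba-a1 and Kit as anchors, the single pairs and group members named beyond these, and the count of cells more than 10-fold below a median were chosen after values were seen. A few genes that the rule would name are not reported here. The members and lists were chosen with earlier results of these data known. Planned comparisons of CFU with the other 2 sorted populations were not run, and those wells are not analysed here.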

Additional observations from a re-analysis of the deposited data

Results flagged for a closer look

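In 11 of 196 groups of 4 mice tested (5.61%), 1 mouse stood apart from the other 3 by more than Dixon's 95% critical value, a share near the 1 in 20 that chance gives. Control 3 stood apart in 4 of them. Its median level of Gfi1b was 297.6 CPM against 422.8 to 447.8 CPM in the other control mice. The median r within the heat shock list was 0.3355 there against 0.134 to 0.1388, the variance ratio of CT010467.1 was 2.166 against 2.95 to 2.978 in cells of the other control mice, and that of Ifngr1 was 0.805 against 1.443 to 1.534. Control 3 also held 5 of the 12 cells with fewer than 3 erythroid markers, whose part in these values was not tested. In control 2, the median share of mitochondrially encoded counts was 3.127% against 3.704% to 3.817%.

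Among depleted mice, the variance ratio of Klf1 was -0.02528 in depleted 1 against 1.227 to 1.423, and the median level of Ctse there was 1801 CPM against 1633 to 1650 CPM. The Klf1 ratios are over all kept cells. In erythroid cells alone the between-cell SD of Klf1, given above, was lower in depleted 4 than in depleted 1. In depleted 3, the median level of Rrm2 was 776.9 CPM against 632.6 to 654.8 CPM, and the median r within ribosomal protein genes was 0.2682 against 0.3639 to 0.3795. In depleted 4, the variance ratio of Prdx2 was 2.653 against 0.8609 to 0.971, and the median level of Ifngr1 was 189 CPM against 264.4 to 279 CPM. Depleted 4 held 1 cell with fewer than 3 erythroid markers. In erythroid cells alone the Prdx2 ratio was at most 1.60 in any of the 8 mice.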

How the results depend on the processing

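The level comparison gave 0 called genes by edgeR and 465 by DESeq2, and the cause was not tested. edgeR also called 0 genes without each mouse in turn, without the filter on low counts, in erythroid cells alone and with the wells of over 10000 genes kept. The variance ratio, list SD and list r comparisons likewise gave 0 calls under every alternative run, each mouse left out in turn included. The median r of the globin list, 0.833, became 0.794 with a pseudocount of 1, 0.763 in thinned cells and 0.775 by Spearman's correlation, and lay between 0.826 and 0.839 with each mouse left out. That of mitochondrially encoded genes, 0.544, became 0.324 in thinned cells and 0.447 without the 7 cells under 1% mitochondrial counts, a choice made after seeing the data. That of histones, 0.0491, became -0.00128 in thinned cells. The cause of these moves was not tested. Of 33 variance ratios of named genes, 10 moved by more than their SD under the squared coefficient of variation. No paired analysis was possible because the control and depleted mice are different animals on different plates. The planned comparisons with the other sorted populations, and their alternatives, were not run.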
